A study of Mus musculus with 18 samples.

Results

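The genes described here are 9 transcription factors that mark regions of the gut: Cdx2, Cdx1, Pdx1, Gata4, Gata6, Hnf4a, Sox2, Barx1 and Klf5. They were taken as every probe whose gene symbol in the platform annotation was 1 of these names, which gave 12 of the 25697 probes and 9 of the 16593 genes named on the array. RNA levels were read on Illumina bead arrays, on which the brightness of a bead type is the signal of 1 probe. RNA came from the submandibular gland, the stomach and the duodenum of female C57BL/6 mice aged 2 months. Wild-type mice and Car6-/- mice, which lack carbonic anhydrase VI, a zinc enzyme that salivary glands secrete into saliva, were each represented by 3 arrays per tissue, so that 18 arrays fell into 6 groups. The series' design text names 3 mice of each genotype, so the arrays of a group were separate animals, but no label tells whether a replicate number stands for 1 mouse throughout the tissues. The tissues were not divided into epithelium and muscle or, for the stomach, into its regions in any label. The array measures bulk RNA, so fewer cells of a type and less RNA per cell cannot be told apart in any value below.

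The epithelium of the digestive tract keeps its regional character through transcription factors that stay on after development. Cdx2 and its relative Cdx1 are homeodomain proteins that set intestinal as opposed to gastric character, Pdx1 is a homeodomain protein of the pancreas, the gastric antrum and the duodenum, and Sox2 is an HMG-box protein of the oesophagus and stomach. The zinc finger proteins Gata4 and Gata6 and the nuclear receptor Hnf4a act in endodermal epithelium and switch on genes of lipid and nutrient absorption. Barx1 is a homeodomain protein of the stomach wall which, in the mouse embryo, acts in mesenchyme to let stomach epithelium form, and Klf5 is a zinc finger protein of dividing epithelial cells.

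Detected probes, those with a deposited detection p under 0.01, numbered 7868 to 9613 per array in the submandibular gland, 10214 to 11441 in stomach and 9648 to 11808 in duodenum. The number of arrays, 3 in a group, limits the precision of every comparison. In the submandibular gland the Car6 signal was 114, 106 and 158 in wild type, with all 3 arrays detected, and 63.6, 55.1 and 51.0 in Car6-/-, with none detected. The stomach arrays carried the parietal cell marker Atp4a at 24282 to 32410.1, and the submandibular gland arrays carried the acinar water channel Aqp5 at 4771 to 11311. The duodenum arrays carried the brush border sugar enzyme sucrase-isomaltase, Sis, at 1702 to 24022, while the probes for the fatty acid binding proteins Fabp1 and Fabp2 were not detected on any array. Genes typical of neighbouring organs were also detected on the duodenum arrays. All 9 measured pancreatic acinar genes were detected on each of them, at a summed signal of 184047 to 289757 in wild type and 215477 to 281119 in Car6-/-. The 4 gastric surface mucous genes Gkn1, Gkn2, Tff1 and Muc5ac summed to 70832, 76071 and 83192 on the wild-type duodenum arrays and to 55538, 52072 and 1205 on the Car6-/- ones. Gast, which encodes the antral hormone gastrin, was not detected on any stomach array (49.5 to 58.5) and stood at 9671, 10141 and 7374 in wild-type duodenum. Stomach wild-type replicate 3 carried the pancreatic acinar genes at a summed signal of 84878, against 1921 to 3129 on the other 5 stomach arrays. Skeletal muscle genes summed to 15464 on that array and to 10852 and 3560 on Car6-/- stomach replicates 1 and 2. The remaining stomach arrays read 918 to 1283 for them. The part of skeletal muscle in the level of any member was not tested.

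Promoters of 5 of the 9 members were used here. Sequences are given for those among them whose level differed most between wild-type stomach and duodenum, Cdx2, Pdx1, Hnf4a and Barx1. The windows can thus be set beside the values. They are the 250 bases before the annotated transcription start, from RefSeq on build GRCm38.p6, and the 5 members used had 6 promoters. Capitals mark matches, on either strand, to GATAA, a core that Gata proteins bind, to TTTAT, a core that Cdx proteins bind, and to CAAAG, a core shared by Hnf4 and Sox proteins. On the other strand GATAA reads as TTATC. In the same way TTTAT reads as ATAAA there, and CAAAG reads as CTTTG, so a match to the first motif can share letters with a match to the second. The Pdx1 window was chr5:147269847-147270096 on the plus strand, the Cdx2 window chr5:147307250-147307499 on the minus strand, the Hnf4a window shown chr2:163506607-163506856 on the plus strand and the Barx1 window chr13:48662786-48663035 on the plus strand.
Pdx1: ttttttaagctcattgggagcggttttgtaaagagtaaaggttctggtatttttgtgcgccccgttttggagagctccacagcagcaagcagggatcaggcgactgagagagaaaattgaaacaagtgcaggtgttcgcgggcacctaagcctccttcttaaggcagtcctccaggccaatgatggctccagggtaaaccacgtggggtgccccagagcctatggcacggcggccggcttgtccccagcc
Cdx2: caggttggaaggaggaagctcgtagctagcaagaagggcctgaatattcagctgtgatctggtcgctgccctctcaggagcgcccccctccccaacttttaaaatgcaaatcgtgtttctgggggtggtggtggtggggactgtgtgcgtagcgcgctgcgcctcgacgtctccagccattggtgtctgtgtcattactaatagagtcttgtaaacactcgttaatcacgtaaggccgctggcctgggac
Hnf4a: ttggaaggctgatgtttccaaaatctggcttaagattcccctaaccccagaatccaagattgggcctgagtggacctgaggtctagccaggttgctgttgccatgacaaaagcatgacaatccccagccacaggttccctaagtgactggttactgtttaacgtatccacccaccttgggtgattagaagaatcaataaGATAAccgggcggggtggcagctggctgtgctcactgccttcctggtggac
Barx1: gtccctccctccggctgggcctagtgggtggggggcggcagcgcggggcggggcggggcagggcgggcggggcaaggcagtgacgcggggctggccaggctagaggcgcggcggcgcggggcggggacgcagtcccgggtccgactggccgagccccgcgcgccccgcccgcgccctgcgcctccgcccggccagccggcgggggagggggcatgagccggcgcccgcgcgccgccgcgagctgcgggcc

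The Hnf4a window held 1 GATAA, 51 bases before the start, and the other Hnf4a promoter, which begins downstream, held no match. The Pdx1, Cdx2 and Barx1 windows held none of the 3 motifs, and the Sox2 window, not shown, held 1 TTTAT 27 bases and 1 CAAAG 205 bases before the start. Of all 32851 promoter windows of the same length, 22.6% held GATAA, 37.3% TTTAT and 48.6% CAAAG, so these matches are common ones and describe letters only. The Barx1 window was the richest of the 6 in G and C, at 85.6% with 40 CG pairs, and the Sox2 window held 72% and 27 pairs. The Pdx1 window held 54.8% and 10 pairs, the Cdx2 window 55.2% and 13, and the Hnf4a windows 51.2% and 57.6% with 3 and 4 pairs. Over all windows the median was 52.4% with 6 CG pairs. Pdx1 and Cdx2 are neighbours on chromosome 5, and their starts lie 37152 bases apart.

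The tissues differed in which of the 9 factors they detected, but the sets overlapped. On the probe used for the tissue comparisons, wild-type duodenum detected 8 members on all 3 arrays, wild-type stomach 6 and wild-type submandibular gland 1, which was Klf5. Those of stomach, apart from Sox2, were all among those of duodenum. In the submandibular gland of wild-type mice 7 members were not detected on any array. For the tests, signals were corrected for background, quantile-normalized over the 18 arrays and put on the log2 scale, limma was fitted to all genes, and p was adjusted over all of them by the Benjamini-Hochberg method. A log2 difference names the tissue it starts from, so that a negative value of stomach minus duodenum is a higher level in duodenum. Between stomach and duodenum of wild-type mice 7 of the 9 members passed an adjusted p of 0.05 in limma, 2 higher in stomach and 5 higher in duodenum, where 31% of the 9682 genes tested passed in either direction, 17.4% as higher in stomach and 13.6% as higher in duodenum. In Car6-/- mice 8 of the 9 passed, 3 higher in stomach and 5 higher in duodenum, against 46.6% of all genes, 25.7% and 20.9% by direction. The members were chosen with earlier results of these data known, so these counts are a description and not independent evidence. The comparisons with the submandibular gland share its arrays and those of the other tissues, so they are given gene by gene and not counted together. The plot of signals on all arrays shows the values that the following paragraphs describe.

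**Figure D1:**
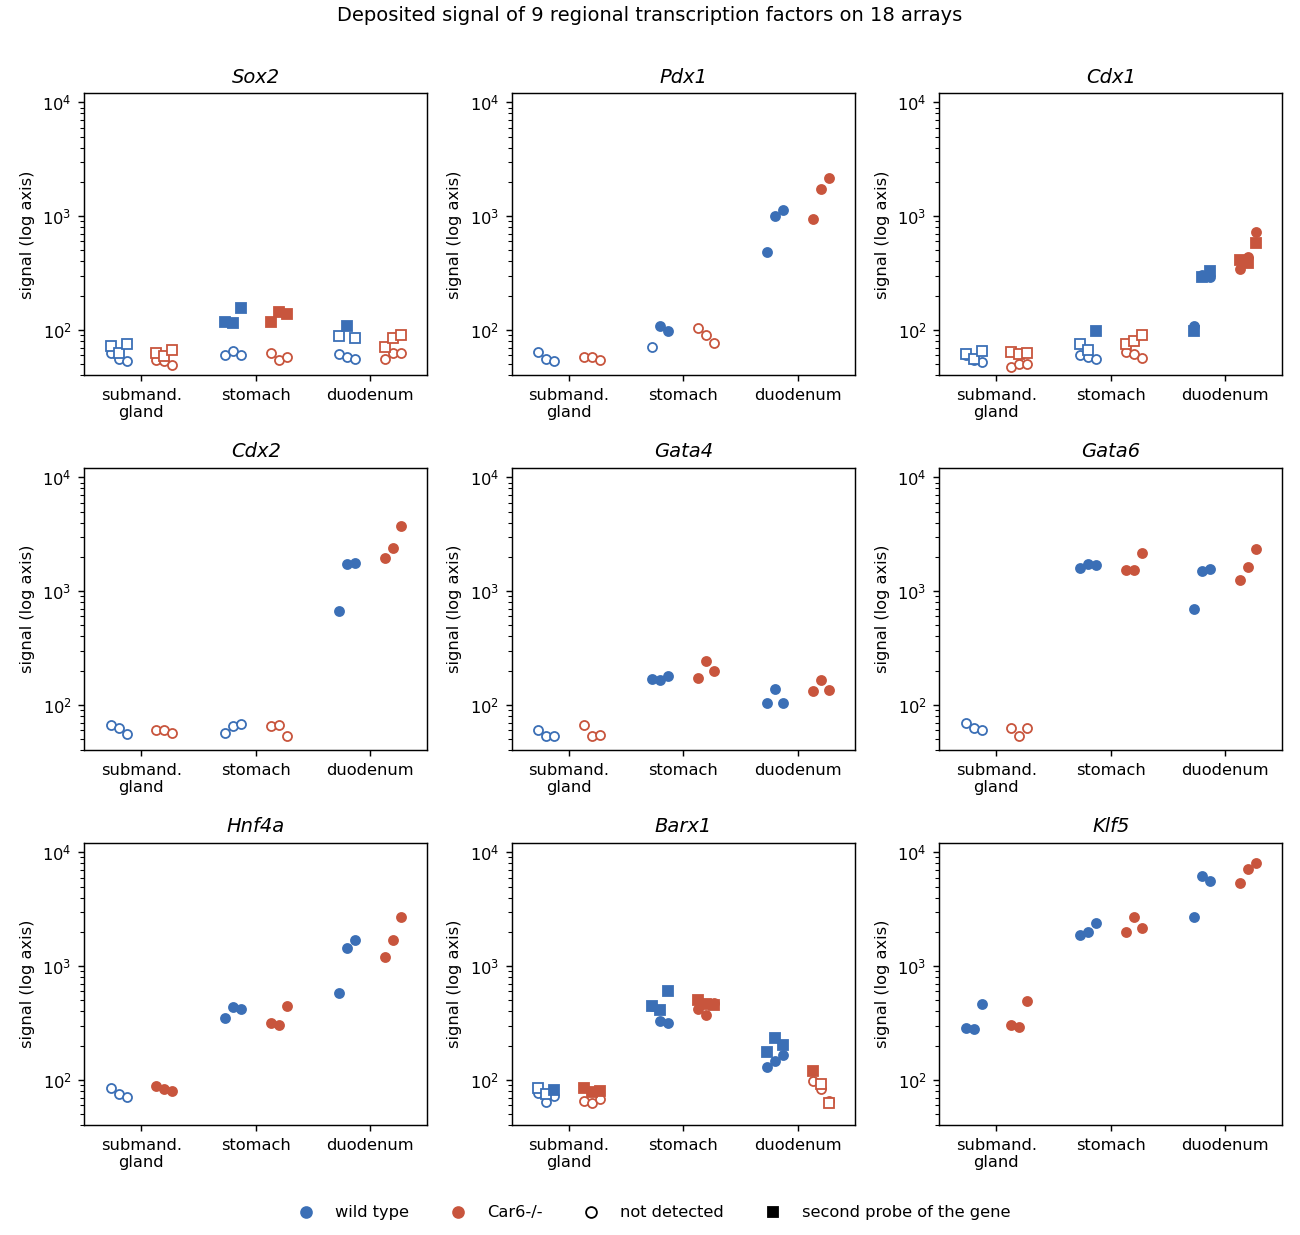
Deposited signal (log axis, arbitrary units) of each member's probes on the 18 arrays, by tissue, with wild type in blue, Car6-/- in red, filled points for detected and open points for undetected values, and squares for the second probe of Sox2, Cdx1 and Barx1. Cdx2 is detected on the 6 duodenum arrays alone, Gata6 on the stomach and duodenum arrays, Klf5 on all 18 arrays, and Barx1 is highest on the stomach arrays.

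The caudal factors were detected on all 6 duodenum arrays and, apart from 1 stomach array for Cdx1, nowhere else. The Cdx2 signal was 667, 1740.3 and 1761 in wild-type duodenum and 1974, 2404 and 3712 in Car6-/- duodenum, and no submandibular gland or stomach array detected it (53.8 to 67.5). All 6 duodenum arrays thus stood above all 12 others, and wild-type replicate 1 was the lowest of the 6. The duodenal mean was 1389.5 ± 626 (SD, n = 3) in wild type and 2696 ± 905 (SD, n = 3) in Car6-/-. Where a group had no detected array, only a lower limit of the fold is given: the brighter group's mean against, on each dim array, the higher of the probe's own signal and the lowest signal among detected probes, averaged on the normalized log2 scale. By that limit Cdx2 was at least 13.3-fold higher in wild-type duodenum than in stomach (limma, adjusted p = 2.12e-12) and at least 20-fold higher in Car6-/- mice (adjusted p = 2.93e-13). Against the submandibular gland the limits were 9.64-fold in wild type (adjusted p = 3.95e-13) and 15.8-fold in Car6-/- (adjusted p = 1.08e-13). Submandibular gland and stomach could not be ordered for Cdx2, since neither detected it. A probe needed detection on 3 of the 18 arrays to be tested, and Cdx2 reached this only through duodenum. The direction of its differences between duodenum and the other tissues was thus fixed beforehand. Cdx1 and Pdx1 also reached it only through duodenum, and Sox2 only through stomach. No gland array detected Gata4 or Gata6, so their direction against the gland was fixed too.

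Cdx1, the second caudal factor, is measured by 2 probes, and the one used for the tissue comparisons read 98.5, 294 and 329 in wild-type duodenum and 408, 389 and 583 in Car6-/- duodenum. Wild-type replicate 1 was again the lowest. In stomach the same probe read 74.6, 66.3 and 98.6 in wild type, with replicate 3 alone detected, and 75.7, 80.0 and 91.0 in Car6-/-, with none detected. Wild-type stomach replicate 3 was as high as wild-type duodenum replicate 1, so the groups met, although the difference passed (limma, adjusted p = 0.000172). No fold is given, since 2 of the 3 stomach arrays did not detect the probe. The fitted log2 difference was -2.22, or -1.38 without background correction, and the deposited means were 79.8 ± 16.8 (SD, n = 3) in stomach and 241 ± 124 (SD, n = 3) in duodenum. The Car6-/- groups did not overlap, and Cdx1 was at least 3.63-fold higher in duodenum (adjusted p = 2.37e-06). The other Cdx1 probe read 109, 303 and 289 in wild-type and 346, 441 and 730.0 in Car6-/- duodenum and was not detected elsewhere, and the log2 values of both probes correlated at r = 0.979 over the 18 arrays. Against the submandibular gland, with no detected array, Cdx1 was at least 1.58-fold higher in wild-type duodenum (adjusted p = 2.85e-05) and at least 2.87-fold higher in Car6-/- duodenum (adjusted p = 1.07e-06).

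Pdx1, which pancreas, antrum and duodenum share, was high in duodenum and close to the detection limit in stomach. Its signal was 482, 999 and 1141 in wild-type duodenum and 947, 1734 and 2164 in Car6-/- duodenum. In wild-type stomach it was 70.7, 109 and 98.8, with replicates 2 and 3 detected, and in Car6-/- stomach 104, 90.0 and 77.1, with none detected. No stomach value came near a duodenum value. Wild-type duodenum was above stomach (log2 -4.20, SE 0.25, limma adjusted p = 2.1e-09), by a size that depends on the background correction of the dim stomach signals (log2 -3.16 without it). Car6-/- duodenum was at least 11.8-fold above it (adjusted p = 2.69e-10). The submandibular gland read 53.3 to 63.9, with no array detected, and duodenum stood at least 6.27-fold above it in wild type (adjusted p = 7.47e-11) and at least 9.35-fold in Car6-/- (adjusted p = 1.98e-11). The small difference between gland and stomach passed in wild type (adjusted p = 0.0179) but not in Car6-/- (adjusted p = 0.0526), and in wild type it was lost when arrays were scaled to the same median (adjusted p = 0.118) or when stomach replicate 2 was left out (adjusted p = 0.109). The Car6-/- difference passed without stomach replicate 3 (adjusted p = 0.0331). The pancreatic acinar genes on the duodenum arrays, given above, moved with Pdx1 between the tissues, and so did Gast. The gastric surface mucous genes did not pass between wild-type stomach and duodenum (limma, adjusted p from 0.589 for Muc5ac to 0.888 for Tff1). In Car6-/- mice Gkn1, Gkn2 and Muc5ac passed as higher in stomach (adjusted p = 0.0121, 0.0231 and 0.00169), and Tff1 did not (adjusted p = 0.0657). The part of these tissues in the level of Pdx1 or any other member was not tested. Stomach wild-type replicate 3, with the most acinar signal in its group, read 98.8 for Pdx1, and replicate 2 read 109. Both values lie near the detection limit, and a source of the Pdx1 signal in stomach was not tested.

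The endodermal factors were present in both stomach and duodenum. Gata6 was the most even of the members between these organs, with 1600.0, 1732 and 1692 in wild-type stomach and 694, 1513 and 1555 in wild-type duodenum, and 1549, 1538 and 2157 and 1243, 1634 and 2359 in the Car6-/- groups. The wild-type groups did not overlap, by a narrow margin, and the Car6-/- groups did. The difference did not pass in wild type (log2 0.36, SE 0.17, limma adjusted p = 0.127) or in Car6-/- (log2 0.26, SE 0.17, adjusted p = 0.226). It passed in wild type without stomach replicate 3 (log2 0.52, adjusted p = 0.029) and without all replicate 3 arrays (adjusted p = 0.0203). With array weights it passed in wild type (log2 0.48, adjusted p = 0.00499) and in Car6-/- (log2 0.31, adjusted p = 0.0314), so the Gata6 call depends on how the arrays are weighed. The submandibular gland did not detect Gata6 on any array (53.7 to 69.5). Stomach was at least 11.4-fold above it in wild type (adjusted p = 2.29e-13) and at least 12.3-fold in Car6-/- (adjusted p = 1.71e-13), and duodenum at least 8.97-fold and 10.4-fold.

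Gata4, its relative, gave dimmer signals and was higher in stomach. It read 169, 167 and 179 in wild-type stomach and 103, 138 and 104 in wild-type duodenum, and the groups did not overlap. The values were 171, 241 and 199 in Car6-/- stomach and 134, 167 and 137 in Car6-/- duodenum, again without overlap. Stomach stood 1.63-fold above duodenum in wild type (log2 0.70, SE 0.20, limma adjusted p = 0.0129) and 1.66-fold above it in Car6-/- (log2 0.73, SE 0.20, adjusted p = 0.00626). The wild-type call was lost without duodenum replicate 3 (log2 0.53, adjusted p = 0.076) and without all replicate 3 arrays (adjusted p = 0.0721). No submandibular gland array detected Gata4 (52.8 to 66.9), and stomach stood at least 1.22-fold above it in wild type (adjusted p = 1.35e-07) and 1.45-fold in Car6-/- (adjusted p = 1.08e-07). Duodenum passed against the gland as well (adjusted p = 8.98e-06 in wild type), but its signals were too near the detection limit to give a fold there.

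Hnf4a, the nuclear receptor of enterocytes and hepatocytes, was higher in duodenum than in stomach and near background in the gland. It read 581, 1453 and 1696 in wild-type and 1196, 1703 and 2707 in Car6-/- duodenum, 352, 434 and 422 in wild-type and 314, 307 and 444 in Car6-/- stomach. All 12 of these arrays detected it, and no stomach value reached a duodenum value. Duodenum stood 3.44-fold above stomach in wild type (log2 -1.78, SE 0.26, limma adjusted p = 6.3e-05) and 5.12-fold in Car6-/- (log2 -2.36, SE 0.26, adjusted p = 1.78e-06). The submandibular gland read 85.7, 74.9 and 70.2 in wild type, with none detected, and 87.9, 83.3 and 80.5 in Car6-/-, with all 3 detected, although the genotypes overlapped. Wild-type stomach was at least 2.76-fold above the gland (adjusted p = 2.37e-06) and wild-type duodenum at least 8.53-fold (adjusted p = 1.66e-09). In Car6-/- mice the log2 difference of gland minus stomach was -1.49 (SE 0.26, adjusted p = 0.000164) and of gland minus duodenum -3.85 (SE 0.26, adjusted p = 2.48e-09), and these were -2.32 and -4.79 when arrays were scaled to the same median. Hnf4a was thus highest in duodenum, lower in stomach and lowest in the gland.

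Sox2, the foregut factor, was dim everywhere, and its 2 probes did not give the same picture. The first was not detected on any of the 18 arrays, and the log2 values of both correlated at r = -0.0754. The second read 119, 114 and 155 in wild-type stomach and 117, 143 and 139 in Car6-/- stomach, with all 6 detected. In duodenum it read 88.9, 109 and 85.6 in wild type, with replicate 2 alone detected, and 71.2, 84.6 and 89.9 in Car6-/-, with none detected. The stomach values all lay above the duodenum values of the same genotype. The difference passed in Car6-/- mice, at least 1.27-fold (limma, adjusted p = 0.00053), and did not pass in wild type (log2 0.58, SE 0.23, adjusted p = 0.0707), where median scaling brought it past the threshold (log2 0.74, adjusted p = 0.0189). The submandibular gland detected it on no array (59.5 to 75.9). Stomach was above the gland in both genotypes (adjusted p = 0.0124 and 0.000723), too near the detection limit for a fold, and in wild type the call was lost without stomach replicate 3 (adjusted p = 0.0518) or submandibular gland replicate 2 (adjusted p = 0.0754). Of 11 genes of squamous forestomach epithelium, 8 or 9 were detected on each stomach array and none on a duodenum array. Their summed signal was 40791, 8659 and 67631 in wild-type stomach and 36601, 51671 and 8141 in Car6-/- stomach, and its part in the Sox2 level was not tested.

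Barx1, the mesenchymal stomach factor, was highest in stomach on both of its probes. The probe used for the tests read 442, 412 and 606 in wild-type and 499.8, 467 and 459 in Car6-/- stomach, and 176, 232 and 202 in wild-type and 119, 92.0 and 62.5 in Car6-/- duodenum, where replicate 1 alone was detected. No duodenum array reached a stomach array. Stomach stood 2.45-fold above duodenum in wild type (log2 1.29, SE 0.27, limma adjusted p = 0.00187) and was also above it in Car6-/- (adjusted p = 9.91e-08). No fold is given for Car6-/-, since 2 of its 3 duodenum arrays did not detect the probe. The fitted log2 difference was 3.22 there and 2.26 without background correction, and the deposited means were 475 ± 21.7 (SD, n = 3) in stomach and 91.2 ± 28.3 (SD, n = 3) in duodenum. The other probe read 444, 328 and 314 in wild-type stomach and 129, 145 and 167 in wild-type duodenum, with no overlap, and both probes correlated at r = 0.944. The summed signal of 8 smooth muscle genes was 38241 to 61802 in wild-type stomach and 27685 to 51769 in wild-type duodenum, and these ranges overlapped. In Car6-/- mice it was 42494 to 49078 in stomach and 31039 to 33607 in duodenum, without overlap. Smooth muscle genes thus moved with Barx1 between these Car6-/- groups, and their part in its difference was not tested.

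In the submandibular gland Barx1 read 85.5, 75.5 and 82.2 in wild type, with replicate 3 alone detected, and 84.6, 78.0 and 80.3 in Car6-/-, with all 3 detected. Stomach stood above the gland in wild type (log2 of gland minus stomach -2.28, SE 0.27, limma adjusted p = 3.86e-06) and 4.52-fold above it in Car6-/- (adjusted p = 6.32e-06). Wild-type duodenum was also above the gland (log2 of gland minus duodenum -0.99, SE 0.27, adjusted p = 0.0062). With median scaling these log2 differences were -3.10, -2.93 and -1.66. In Car6-/- mice the fit placed the gland above duodenum (log2 1.04, SE 0.27, adjusted p = 0.00391), but the deposited signals overlapped and the call was lost with median scaling (log2 0.49, adjusted p = 0.165). The other Barx1 probe gave log2 0.15 there and did not pass (limma, adjusted p = 0.664).

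Klf5, the factor of dividing epithelium, was detected on all 18 arrays. It read 288, 280.3 and 460.2 in the wild-type and 301, 293 and 497 in the Car6-/- submandibular gland. The stomach values were 1869, 1999 and 2409.6 in wild type and 2013, 2686 and 2149.7 in Car6-/-, and the duodenum values 2723, 6218 and 5649 and 5344, 7165 and 8122. The 3 tissues formed separate ranges, with the gland lowest and duodenum highest. Duodenum stood 2.496-fold above stomach in wild type (log2 -1.32, SE 0.19, limma adjusted p = 6.98e-05) and 2.60-fold in Car6-/- (adjusted p = 2.44e-05). Stomach stood above the gland (log2 of gland minus stomach -1.29, SE 0.19, adjusted p = 4.12e-05 in wild type), and this size depended on the scaling, as it was -2.39 when arrays were scaled to the same median. Gland minus duodenum was -2.61 in wild type (SE 0.19, adjusted p = 1.02e-08) and -2.83 in Car6-/- (SE 0.19, adjusted p = 3.12e-09), or -3.58 and -3.91 with median scaling.

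Taking the 9 members in each comparison with the gland, 7 passed as lower in the wild-type gland than in stomach, where 50.8% of all genes passed in either direction and 26.7% as lower. In Car6-/- mice 6 passed as lower, against 48.8% and 24.4%. Against duodenum 8 passed as lower in the wild-type gland (55.1% of all genes in either direction, 26.7% lower) and 7 in the Car6-/- gland (58.8% and 27.5%). Barx1 was the 1 member higher in the Car6-/- gland, against 31.2% of all genes, and its other probe did not pass there. The members that did not pass as lower than stomach in wild type were Cdx1 and Cdx2, and Sox2 did not pass against duodenum in either genotype. No gland array detected Sox2, Pdx1, Cdx1, Cdx2, Gata4 or Gata6, so they entered these tests only through the other tissues. The direction of any pass among them was thus fixed beforehand, and the counts are a description only. The lower limits of wild-type stomach against the gland were 0.934-fold for Sox2 and 0.701-fold for Pdx1, so no fold can be given for them.

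**Figure D2:**
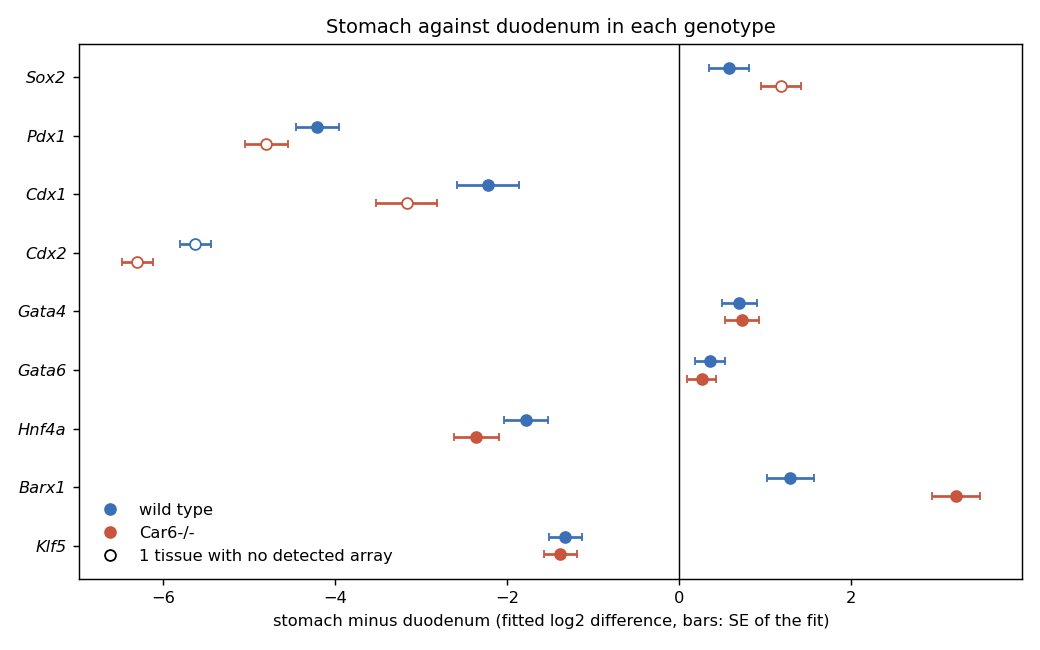
Fitted log2 difference of stomach minus duodenum for each member in wild type (blue) and Car6-/- (red), with bars for the standard error of the limma fit and open points where 1 of the tissues had no detected array, so that the fitted size is not a measured fold. Cdx2, Pdx1 and Cdx1 lie farthest to the duodenal side, Barx1 farthest to the stomach side, and Gata6 lies nearest to 0.

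Genes that the Cdx factors are reported to act on, mostly in the mouse, were higher in duodenum. Over all genes tested, 13.6% were higher in wild-type duodenum and 17.4% in stomach, shares to set beside each list below. In Car6-/- mice the shares were 20.9% and 25.7%. Of 12 listed targets of the Cdx factors 8 were tested, and all 8 were higher in wild-type duodenum. Their median fitted log2 difference was -3.63 for stomach minus duodenum, against 0.05 over all genes. Since 6 of the 8 were not detected in stomach, the median with those genes at their lower limit was -2.28. A gene detected in duodenum alone entered the test only through those arrays, so its direction was fixed beforehand. Sis read 1702, 8140.2 and 9611 in wild-type duodenum and 53.5 to 55.2 in stomach, and was at least 53.8-fold higher in duodenum (limma, adjusted p = 1.6e-11). Guca2a, which encodes the secreted peptide guanylin, read 357, 1544 and 1993 and was at least 10.9-fold higher (adjusted p = 1.53e-08). Heph, the iron oxidase hephaestin, read 526, 1526 and 1847 against 108, 92.6 and 89.9 in stomach (adjusted p = 1.08e-09). All 8 were again higher in duodenum of Car6-/- mice, with a median of -4.46, or -3.25 at the limits.

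Of 9 listed targets of Hnf4a and Gata4, 5 were tested, and 4 were higher in wild-type duodenum while 1 was higher in stomach, with a median of -4.70 and of -3.02 at the limits. Sis is on this list too. Apoc3, an apolipoprotein of lipid-rich particles, read 1015, 3920.2 and 4540.4 in duodenum and 73.6, 118 and 107 in stomach (log2 -5.79, SE 0.39, limma adjusted p = 1.03e-08). Mttp, which loads lipid onto apolipoprotein B, read 337, 915 and 1481 in duodenum and was not detected in stomach (at least 8.11-fold, adjusted p = 5.56e-09). The member higher in stomach was Apoa1, the main apolipoprotein of high density lipoprotein, named here after its value was seen, at 21645, 20791 and 28988 in stomach and 6134, 20164 and 22651 in duodenum, where the groups overlapped (log2 0.77, SE 0.26, adjusted p = 0.0334). Of the same 5, 4 were higher in duodenum and none in stomach of Car6-/- mice, with a median of -5.57 and of -3.94 at the limits.

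Of 4 ileal genes that Gata4 is reported to keep low in proximal intestine of the mouse 3 were tested, and 2 were higher in wild-type duodenum than in stomach (median -4.63, and -2.73 at the limits). They were the bile acid exporter subunits Slc51a, at 810.0, 3051 and 3319 in duodenum (at least 21.1-fold, limma adjusted p = 3.05e-11), and Slc51b, at 339, 651 and 1136 (at least 6.64-fold, adjusted p = 6.72e-11). Fabp6, an ileal bile acid binding protein, was near the detection limit in both organs and did not pass (adjusted p = 0.873). Of the 3 listed effectors of Barx1 only Sfrp1, a secreted Wnt inhibitor, was tested. It read 532, 439 and 836 in wild-type stomach and 133, 275 and 317 in duodenum, without overlap (log2 1.42, SE 0.28, adjusted p = 0.00115). Of 3 hormone genes of the Pdx1 territory, Gast was at least 90.4-fold higher in wild-type duodenum than in stomach (adjusted p = 9.98e-06) and Gip, an incretin gene, at least 1.11-fold (adjusted p = 0.00655). Sst, the somatostatin gene, was higher in stomach (log2 2.17, SE 0.21, adjusted p = 7.4e-07). The hormone list had a median of -0.68, or -0.15 at the limits.

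Among 18 tested intestinal and endodermal transcription factors, 10 were higher in wild-type duodenum and 2 in stomach, with a median of -0.91 and of -0.50 with the 9 undetected ones at their limits. Vdr, the vitamin D receptor, read 940.5, 2588 and 2177 in duodenum and was not detected in stomach (at least 18.4-fold, limma adjusted p = 3.05e-11). Onecut2, a homeodomain factor of proximal intestine, was at least 10.4-fold higher in duodenum (adjusted p = 3.74e-09), and Creb3l3, a lipid-responsive factor, at least 3.97-fold (adjusted p = 9.59e-10). The list shares Isx with the Cdx targets. The 2 higher in stomach, named after their values were seen like the other genes that make up small counts here, were Foxa2, a forkhead factor of endoderm (log2 1.68, SE 0.13, adjusted p = 7.18e-08), and Hes1, a Notch target (log2 0.55, SE 0.16, adjusted p = 0.0125). The Car6-/- mice had 10 of the 18 higher in duodenum and 4, Foxa1, Foxa2, Foxa3 and Hes1, in stomach.

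Of 6 tested transcription factors of foregut and squamous epithelium only Trp63, the basal cell factor of squamous epithelium, passed in wild type, at 446, 122 and 773 in stomach and 57.4 to 59.4 in duodenum (at least 3.15-fold, limma adjusted p = 0.00111), and the list's median was 0.28. The Trp63 values of the 3 wild-type stomach arrays follow the order of the squamous gene sums given above, with replicate 2 lowest, and Trp63 is itself in that sum. In Car6-/- mice 4 of the 6, Trp63, Sox21, Klf4 and Foxq1, were higher in stomach and the median was 1.17. Of 9 tested mesenchymal factors 4 were higher in wild-type stomach, Nr2f2, Hoxa5, Isl1 and Tcf21, and 2 in duodenum, Nkx2-3 and Meis2, with a median of 0.33. Nr2f2, a nuclear receptor of stroma, stood at 494, 463 and 516 in stomach and 107, 126 and 91.1 in duodenum (log2 2.66, SE 0.24, adjusted p = 3.65e-07). Hoxa5, which patterns foregut mesenchyme, was also higher in stomach (log2 1.99, SE 0.20, adjusted p = 1.04e-06), and Nkx2-3, a factor of intestinal mesenchyme, was higher in duodenum (log2 -2.08, SE 0.36, adjusted p = 0.00032).

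None of the 6 tested salivary gland factors differed between wild-type stomach and duodenum, with a median of -0.05, and 4 of them, Elf5, Ascl3, Foxc1 and Barx2, were higher in the wild-type gland than in either organ. Over all genes, 50.8% passed between wild-type gland and stomach and 55.1% between gland and duodenum, 26.7% as lower in the gland each time. In each comparison 3 of the 6 factors were undetected in 1 of the groups. For a gene detected in the gland alone the direction was fixed beforehand. The 1 tested hindgut factor, Hoxa13, did not pass between stomach and duodenum (log2 0.11, SE 0.28, limma adjusted p = 0.819). None of the 10 lists, chosen with earlier results of these data known, received a test of its own.

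**Figure D3:**
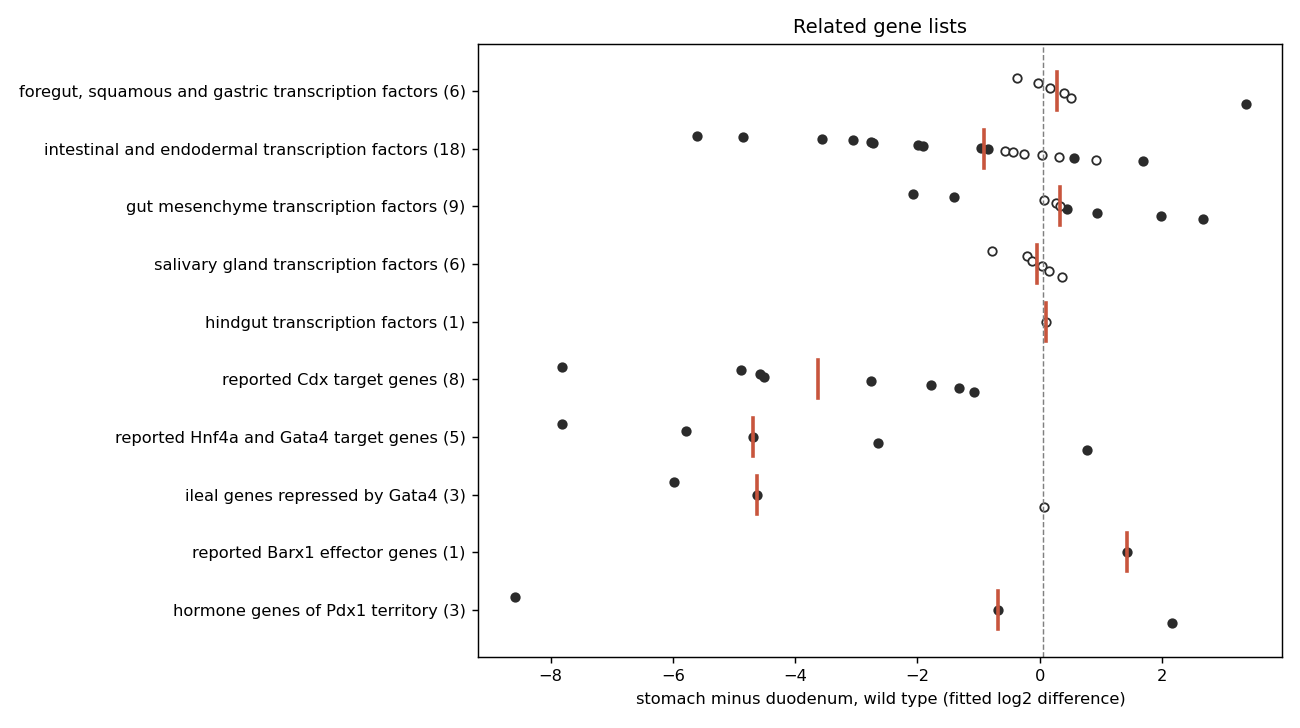
Fitted log2 difference of stomach minus duodenum in wild type for each tested gene of the 10 lists, with the number tested in brackets, filled points past an adjusted p of 0.05 in limma and open points not past it. Red bars give each list's median and the dashed line the median of all genes, 0.05, and the reported Cdx targets all lie to the left of it.

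The comparison of genotypes asked whether the factors differed in mice without carbonic anhydrase VI. No member passed an adjusted p of 0.05 in any tissue. In duodenum 0 of 8 tested members passed, where 0.0117% of the 8523 genes tested did, and 4 members, Barx1, Cdx2, Cdx1 and Pdx1, had an unadjusted p under 0.05, as did 1943 genes. In stomach 0 of 6 passed, as did 0% of 8556 genes, with 248 genes at an unadjusted p under 0.05 and a smallest adjusted p of 0.9999. In the submandibular gland 0 of 3 passed, against 0.099% of 7074 genes, with 682 genes and 0 members at an unadjusted p under 0.05, and the 3 tested members were Hnf4a, Barx1 and Klf5. The fitted log2 differences of Car6-/- minus wild type in stomach lay between -0.24 for Hnf4a and 0.29 for Gata4, with overlapping groups for all 6 (6.09% of all genes did not overlap), among them 1869, 1999 and 2409.6 against 2013, 2686 and 2149.7 for Klf5. In the gland Klf5 differed by -0.0030 (SE 0.17), Barx1 by 0.08 (SE 0.13) and Hnf4a by 0.34 (SE 0.18, adjusted p = 0.561).

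In duodenum the deposited signals of the groups did not overlap for 3 of the 8 members, where 15.1% of all genes tested did not overlap, and none of the members passed the adjusted threshold. Barx1 read 176, 232 and 202 in wild type and 119, 92.0 and 62.5 in Car6-/-, so that all 3 Car6-/- arrays lay below all 3 wild-type arrays. The log2 difference was -2.08 (SE 0.42, limma, adjusted p = 0.122), and it was -1.34 without background correction (adjusted p = 0.103). Of the 3 Car6-/- arrays, replicate 1 alone detected the probe. The other Barx1 probe read 129, 145 and 167 in wild type, all detected, and 97.5, 83.2 and 65.5 in Car6-/-, none detected (log2 -1.68, adjusted p = 0.128). On the first probe the difference was -1.63 (adjusted p = 0.175) without Car6-/- replicate 3. With arrays of all tissues in 1 fit it passed (log2 -1.92, adjusted p = 0.00343).

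The caudal factors lay the other way. Cdx2 read 667, 1740.3 and 1761 in wild type and 1974, 2404 and 3712 in Car6-/-, and the lowest Cdx2 value of Car6-/- exceeded the highest of wild type (log2 0.69, SE 0.22, limma, adjusted p = 0.149). In the fit of all 18 arrays Cdx2 passed (adjusted p = 0.0322). Cdx1, tested here on the probe with the higher mean in duodenum, read 109, 303 and 289 and 346, 441 and 730.0, also without overlap (log2 1.14, SE 0.37, adjusted p = 0.157). Pdx1, at 482, 999 and 1141 and 947, 1734 and 2164, overlapped between the genotypes (log2 0.55, SE 0.22, adjusted p = 0.195). For Gata4, Gata6, Hnf4a and Klf5 the groups overlapped, with log2 differences of 0.27, 0.17, 0.32 and 0.22 and adjusted p of 0.51, 0.583, 0.475 and 0.476. No gene of the 10 lists passed for genotype in duodenum. The median log2 difference was 0.94 over the 8 Cdx targets, 1.10 over the 5 targets of Hnf4a and Gata4 and -0.57 over 5 foregut factors, against 0.02 over all genes.

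Markers of neighbouring tissue varied on the same arrays, although none of those named here passed for genotype. Gast read 9671, 10141 and 7374 in wild-type duodenum and 2639, 1519 and 65.6 in Car6-/- duodenum, so it was lower on all Car6-/- arrays and lowest on the array with the lowest Barx1, although the difference did not pass (log2 -4.46, limma, adjusted p = 0.18). Muc5ac, a mucin of gastric surface cells, read 10849, 9387 and 9182 and 5170.1, 2133 and 82.4 (adjusted p = 0.232), and the adjusted p was 0.311 for Gkn1, 0.357 for Gkn2 and 0.453 for Tff1. All 4 gastric surface mucous genes were detected on the wild-type arrays, with sums of 70832 to 83192, and 3 or 4 on the Car6-/- arrays, with sums of 1205 to 55538. The enterocyte marker Sis read 1702, 8140.2 and 9611 in wild type and 10429, 17241 and 24022 in Car6-/-, and 7 of the 9 measured enterocyte genes were detected on every duodenum array, with sums of 13043, 44142 and 51107 and of 49213, 71655 and 99072. Wild-type replicate 1, which had the lowest Cdx1, Cdx2, Pdx1, Gata6, Hnf4a and Klf5 of its group, also had the lowest enterocyte sum and the fewest detected probes among the duodenum arrays. The enterocyte sum includes Apoa1, which was higher in wild-type stomach, and it was 24765.5 to 33455.3 there. It is thus not particular to duodenum. The pancreatic acinar sums overlapped between the genotypes. The summed signals of 8 smooth muscle genes also overlapped, at 27685, 40319 and 51769 in wild type and 31039, 32828 and 33607 in Car6-/-. Their mean normalized log2 value, in which bright genes weigh less, did not overlap, at 10.43, 10.37 and 10.65 in wild type and 10.28, 9.86 and 9.66 in Car6-/-, and like Barx1 it was lowest on Car6-/- replicate 3. The part of these tissues, smooth muscle included, in the Barx1, Cdx1, Cdx2 and Pdx1 differences was not tested.

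**Figure D4:**
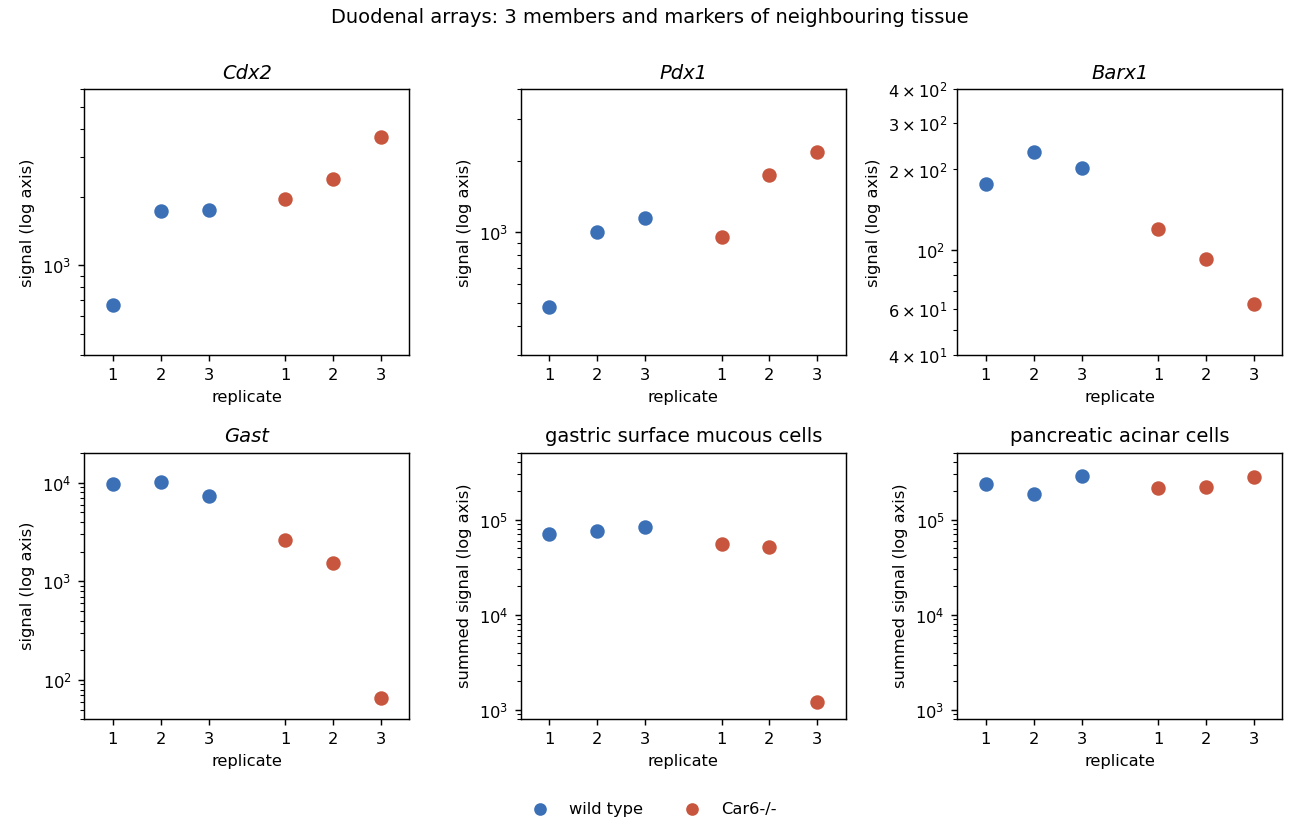
Deposited signal (log axes, arbitrary units) on the 6 duodenum arrays of Cdx2, Pdx1, Barx1 and Gast, and the summed signal of 4 gastric surface mucous genes and 9 pancreatic acinar genes, by replicate, with wild type in blue and Car6-/- in red. Barx1, Gast and the gastric sums are lower on all Car6-/- arrays and lowest on replicate 3, Cdx2 is higher on all Car6-/- arrays, and the pancreatic sums overlap.

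The difference between genotypes was itself compared between tissues. Between duodenum and stomach 0 of the 9 members passed (0.0207% of 9682 genes passed), with Barx1 at log2 -1.93 (SE 0.39, limma adjusted p = 0.13) and Cdx2 at 0.67 (SE 0.25, adjusted p = 0.252), and 2 members and 1240 genes had an unadjusted p under 0.05. Barx1 passed there without Car6-/- duodenum replicate 1 (adjusted p = 0.00414) or wild-type duodenum replicate 3 (adjusted p = 0.0313). Between duodenum and submandibular gland 1 member passed, Barx1 at log2 -2.03 (SE 0.39, adjusted p = 0.0436), against 0.207% of genes, 0.155% as lower. Barx1 was near the detection limit in the gland, and the call was kept in 9 of 19 alternatives, with adjusted p from 0.000819 to 0.126. In all, 8 fits that left out 1 array lost it. The adjusted p was 0.116 and 0.0998 without wild-type gland replicates 1 and 2, and 0.126, 0.107 and 0.0702 without Car6-/- gland replicates 1, 2 and 3. It was 0.126 and 0.0657 without wild-type duodenum replicates 1 and 2, and 0.12 without Car6-/- duodenum replicate 2. Median scaling gave 0.109. Between stomach and submandibular gland 0 members passed, against 0.062% of genes, and 0 members and 447 genes had an unadjusted p under 0.05.

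The genes whose log2 levels over the 18 arrays were most like each member were listed as a description, and the arrays share tissues, so any gene of 1 tissue correlates with any other of it. Cdx2 was most like Ush1c, a brush border scaffold protein (r = 0.998), Sis (r = 0.998) and Ms4a10 (r = 0.998). Pdx1 was most like the brush border cadherin Cdhr2 (r = 0.995), the goblet cell trefoil peptide Tff3 (r = 0.992) and Tmem253 (r = 0.991), and Cdx1 was most like Jaml, Mov10 and Mlxipl (r = 0.983, 0.982 and 0.982). Gata6 was most like 2210407C18Rik (r = 0.999), Apoa1 (r = 0.998) and Lgals2, a galectin of gut epithelium (r = 0.998). Hnf4a was most like Sp5, Bco2 and Tm4sf5 (r = 0.983, 0.982 and 0.981), and Klf5 most like Sema4a, Tm4sf5 and Eps8l3 (r = 0.989, 0.989 and 0.988), so that Tm4sf5 stood among the nearest 3 of both. Barx1 was most like the glucose transporter gene Slc2a1 (r = 0.971), Csrp1, a protein of smooth muscle (r = 0.970), and Efna5 (r = 0.970). Gata4 was most like Adar, Spire2 and Kalrn (r = 0.973, 0.972 and 0.970), and Sox2 most like Cadm1, Nck2 and Sctr (r = 0.913, 0.899 and 0.893).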

How the data were processed

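The deposited table gave, per probe and array, a bead intensity on a linear scale and a detection p-value, and a second deposited table gave the authors' log2 values. The sources used here do not give the software that made them. Sorted columns of those log2 values differed by at most 0.005 within a tissue, as after quantile normalization tissue by tissue, and they served only as an alternative. The deposited intensities, from 36.7 to 40788, were background-corrected with normexp, given an offset of 16, quantile-normalized and put on the log2 scale (neqc, limma 3.58.1, R 4.3.3). Of 25697 probes, 23978 carried 1 gene symbol in the platform annotation and 1719 were unnamed here.

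A probe was tested where at least 3 of the arrays in the fit had a detection p under 0.01, and a gene was represented by its kept probe of highest mean log2 value, with each unnamed probe counted on its own. Tissues and the genotype difference between tissues were compared in 1 fit of all 18 arrays (9682 genes), and genotypes within a tissue in a fit of its 6 arrays, with lmFit and eBayes and Benjamini-Hochberg adjustment over all genes tested. The fit of all 18 arrays treated them as independent. The design text names 3 mice of each genotype, so arrays of different tissues may come from the same animals. The p-values of that fit do not take this into account. A gene passed at an adjusted p under 0.05. The fitting steps were tested on simulated data.

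The members and the gene lists were chosen with earlier results of these data known. From each list, up to 3 genes past the threshold with the largest difference between wild-type stomach and duodenum, detected on all arrays of the higher group, were named. For each member the 3 genes of highest Pearson correlation over the 18 arrays were named. Other genes were named after their values were seen. As a check of pairing, each wild-type array's deviation from its group mean was correlated with that of the Car6-/- array of like number. This gave 0.266, 0.52 and 0.235 in the submandibular gland, -0.311, -0.258 and -0.295 in stomach and 0.485, 0.0871 and 0.44 in duodenum. The values were positive in the gland and duodenum and negative in stomach, and no label says that the numbers pair arrays. Between tissues these correlations ran from -0.0242 to 0.229. Replicate arrays of a group correlated at 0.965 to 0.994 and none were identical. Alternatives were no background correction, median scaling, no filter on dim probes, every probe on its own, the replicate number as a block, array weights, other sets of arrays in the fit, and each array left out in turn.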

Additional observations from a re-analysis of the deposited data

Results flagged for a closer look

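The genotype difference of Barx1 between duodenum and the submandibular gland passed a test of the difference itself, and did not hold in most alternatives. Car6-/- minus wild type was lower in duodenum than in the gland by a log2 difference of -2.03 (SE 0.39, limma adjusted p = 0.0436). It passed in 9 of 19 alternatives, with adjusted p from 0.000819 to 0.126, and was lost with median scaling (0.109), without the filter on dim probes (0.0837) and in 8 of the fits that left out 1 array. Barx1 read lower on all 3 Car6-/- duodenum arrays than on any wild-type one, while the gland arrays of the genotypes overlapped near the detection limit. The other Barx1 probe gave -1.33 and did not pass (adjusted p = 0.127). The summed signal of 4 gastric surface mucous genes was 70832 to 83192 on the wild-type and 1205 to 55538 on the Car6-/- duodenum arrays, although none of the 4 passed for genotype (adjusted p from 0.232 for Muc5ac to 0.453 for Tff1), and their part in the difference was not tested.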

How the results depend on the processing

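No result past the threshold changed direction in the alternatives run. Dim signals limit Sox2, Gata4, Cdx1, Barx1, Pdx1 and Hnf4a, which lay near the detection limit in at least 1 tissue, and 3 arrays a group limit the genotype comparisons. Calls of dim members also moved: Sox2 in wild-type stomach against duodenum passed with array weights (adjusted p = 0.035), Sox2 in wild-type gland against stomach did not with only these groups fitted (0.0572), Sox2 in wild-type gland against duodenum passed without replicate 3 (0.0176), and Pdx1 in gland against stomach passed with array weights in Car6-/- (0.018) and did not without replicate 3 in wild type (0.107). The lower limits of fold use the dimmest probe called detected. Of 27 such limits, 19 have a value at a detection p of 0.05, and all 19 moved by less than 1.5-fold.

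Counts of genes that moved by more than 1.5 times were these. For genotype in duodenum, 1 gene passed, against 5 without background correction, 5 with the authors' deposited log2 values, 3 without the filter on dim probes, 22 without all replicate 3 arrays, 848 with array weights (1 member, Barx1) and 603 with all 18 arrays in 1 fit (2 members, Barx1 and Cdx2). For genotype in the gland, 7 genes passed, against 2 with median scaling, 2 without replicate 3, 23 with weighted arrays and 30 with the 18 arrays fitted together, and in stomach 0 passed against 1 with the 18 arrays fitted together. For the genotype difference between duodenum and stomach, 2 passed, against 4 with median scaling, 1 with every probe on its own, 61 without replicate 3 and 479 with array weights (1 member, Barx1). Between duodenum and gland 20 passed (1 member), against 5 with median scaling (0 members), 158 without replicate 3 and 496 with array weights, and without the filter 0 members passed. Between stomach and gland 6 passed, against 3 with median scaling, 14 without replicate 3 and 21 with array weights. Stomach minus duodenum in wild type had 3000 genes, against 1956 when only these 2 groups were fitted. The cause of these changes was not tested.

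With the replicate number as a block, genotype in duodenum gave 969 genes and 3 members, Barx1 (adjusted p = 0.0234), Pdx1 (0.0461) and Cdx1 (0.0463), the difference between duodenum and stomach 0 genes, and that between duodenum and gland 40 genes. Arrays of like number correlated positively in duodenum and gland and negatively in stomach, and no label pairs them, so the blocked fit is an alternative only. In the gland the block changed no member's call.

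Leaving out 1 array at a time, the genes passing ranged from 0 to 4 for genotype in the gland, 0 to 62 in duodenum (0 members throughout), 1 to 169 for duodenum against stomach (0 to 1 members), 3 to 269 for duodenum against gland (0 to 1 members), 3 to 8 for stomach against gland, and 2282 to 3097 for wild-type stomach minus duodenum (6 to 8 members).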
